A study of Homo sapiens with 6 samples.

Results

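The liver X receptors NR1H3 (LXR alpha) and NR1H2 (LXR beta), their classic lipid efflux targets and the apolipoprotein genes APOE and APOC1 were followed in HAP1 cells, an established near-haploid human line, after knockout of the dihydroceramide desaturase gene DEGS1. The 10 genes were found by symbol among 35238 in the deposited table, and all 10 passed the filter on low counts that left 16954 genes to test. APOE was chosen by its measured rise in the knockout, so its values in that comparison are given as a description with no test. The other 9 genes were chosen for their position beside APOE or for their known place in the LXR pathway, to see whether they moved with it.

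There were 3 knockout libraries, labelled DEGS1 knockout and untreated, and 3 libraries of untreated wildtype cells. Both genotypes were grown in a medium with 5% bovine serum and harvested 24 h after passage. The number of knockout clones is not stated, and nothing in the labels says that the replicates were separate cultures. The p-values here set the difference between genotypes against the variation among libraries of a genotype, and that variation may be technical. They may therefore not hold for other clones or cultures. Totals were 19389644 to 27659835 counts in the knockout and 17322756 to 28988522 in wildtype, and levels are given as CPM, read counts divided by the scaled depth of their library. DEGS1 had 6.88 to 10.4 CPM in knockout libraries and 95.5 to 123 CPM in wildtype libraries, low in every library labelled knockout. BCR and ABL1, the partners of the fusion gene of the leukaemia from which HAP1 derives, were present, with summed levels of 32.3 to 39.8 CPM in the knockout and 29.2 to 33.6 CPM in wildtype. Counts per gene do not show the fusion, so these levels do not test the identity of the line. Wildtype replicate 2 stood apart from its group. The chi-square per degree of freedom between libraries was 33.8 and 52.6 from it to the other wildtype libraries and 12.6 between those, while it was 21.3 and 25.1 from wildtype replicate 2 to knockout replicates 2 and 3 and 47.4 to knockout replicate 1. Knockout replicate 1 also stood apart from its group, at 31.3 and 23.7 from the other knockout libraries, against 14.5 between those. Without wildtype replicate 2, edgeR called 3825 genes, against 756 with all 6 libraries. In whole-culture RNA, a smaller number of cells that express a gene and less of its RNA per cell cannot be told apart.

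LXRs are nuclear receptors that sense oxysterols, the oxidised forms of cholesterol. Paired with a retinoid X receptor (RXR), they bind direct repeats of the letters AGGTCA and switch on genes that move cholesterol and phospholipid out of the cell. In macrophages and glia these include the transporters ABCA1 and ABCG1 and the acceptor APOE, and in many cells they include MYLIP, whose product degrades lipoprotein receptors. In macrophages APOE and APOC1 are induced together through shared downstream enhancers.

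The start regions of 3 of these genes are shown: APOE, its neighbour APOC1, and ABCA1, whose promoter is known for an LXR element. RefSeq (GRCh38.p14) gave windows of 300 bases, 250 before and 50 after a start site, for 9 of the 10 genes, 15 windows in all. Both strands were searched for the exact repeat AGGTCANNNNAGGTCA, a loosened form NGGTNANNNNNGGTCA that also matches the exact one, the single copy AGGTCA that the exact repeat contains, the GC box GGGCGG and TATAAA. Capitals below mark every match.
APOE, chr19:44905546-44905845, plus strand: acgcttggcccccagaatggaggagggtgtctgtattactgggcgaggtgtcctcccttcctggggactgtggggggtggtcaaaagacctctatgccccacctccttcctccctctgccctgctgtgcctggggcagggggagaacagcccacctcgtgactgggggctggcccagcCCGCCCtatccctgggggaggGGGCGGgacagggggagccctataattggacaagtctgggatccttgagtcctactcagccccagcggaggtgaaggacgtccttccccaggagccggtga
APOC1, chr19:44914422-44914721, plus strand: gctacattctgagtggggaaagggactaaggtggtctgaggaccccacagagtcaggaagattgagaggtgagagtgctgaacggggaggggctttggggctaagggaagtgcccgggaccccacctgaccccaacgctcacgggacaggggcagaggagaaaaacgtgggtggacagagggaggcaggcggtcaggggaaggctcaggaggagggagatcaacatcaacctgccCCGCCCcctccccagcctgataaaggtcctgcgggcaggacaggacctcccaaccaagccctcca
ABCA1, chr9:104928106-104928405, minus strand: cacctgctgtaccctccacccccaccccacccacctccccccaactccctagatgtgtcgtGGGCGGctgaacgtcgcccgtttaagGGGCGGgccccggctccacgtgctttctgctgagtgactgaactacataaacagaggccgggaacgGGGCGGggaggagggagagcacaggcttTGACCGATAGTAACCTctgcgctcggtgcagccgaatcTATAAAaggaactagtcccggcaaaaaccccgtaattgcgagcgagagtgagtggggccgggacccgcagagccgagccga

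The run of 16 capitals in ABCA1, which begins 69 bases before the start site, is the loosened repeat and reads AGGTTACTATCGGTCA on the other strand. The loosened form leaves free the letters at which this site departs from the exact repeat, so its match in ABCA1 was fixed by the pattern. The loosened repeat was in 1 of the 15 windows, that of ABCA1, and in 0.236% of all 35116 RefSeq windows. No enrichment can be read from these shares. The exact repeat was in 0 of the 15 windows and in 0.0199% of all windows. The single copy was in 1 of the 15 windows, of NR1H3, and in 13.8% of all windows. The GC box was in 11 of the 15 windows and in 45.0% of all windows. The APOE and APOC1 windows printed here hold GC boxes alone. A match is a string of letters and not a measured site, and its absence says only that these letters are not in the window. ABCG1 was the gene with no window.

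APOE, the lipid carrier that leaves cells with cholesterol and phospholipid, stood apart from the rest. It had 39.97, 20.6 and 35.1 CPM in the knockout libraries, against 8.57, 7.84 and 9.80 CPM in the wildtype libraries. The lowest knockout library was 2.1 times the highest wildtype library, so the groups did not overlap. The raw counts behind these levels were 779, 539 and 964 in the knockout and 218, 211 and 183 in wildtype. The mean was 31.9 ± 10.1 CPM in the knockout and 8.74 ± 0.993 CPM in wildtype (SD, n = 3 each), which is 3.65-fold, with a fitted log2 fold change of 1.87 (SE 0.22). The coefficient of variation was 31.6% in the knockout and 11.4% in wildtype. In each genotype the library numbered 2 was the lowest for APOE. Over 16 other settings of the processing the fitted log2 fold change lay between 1.70 and 2.11, the highest without knockout replicate 2. The value of 1.70 came without knockout replicate 1, and also with the replicate block and the length and GC trend removed. With that trend alone removed it was 1.71.

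**Figure D1:**
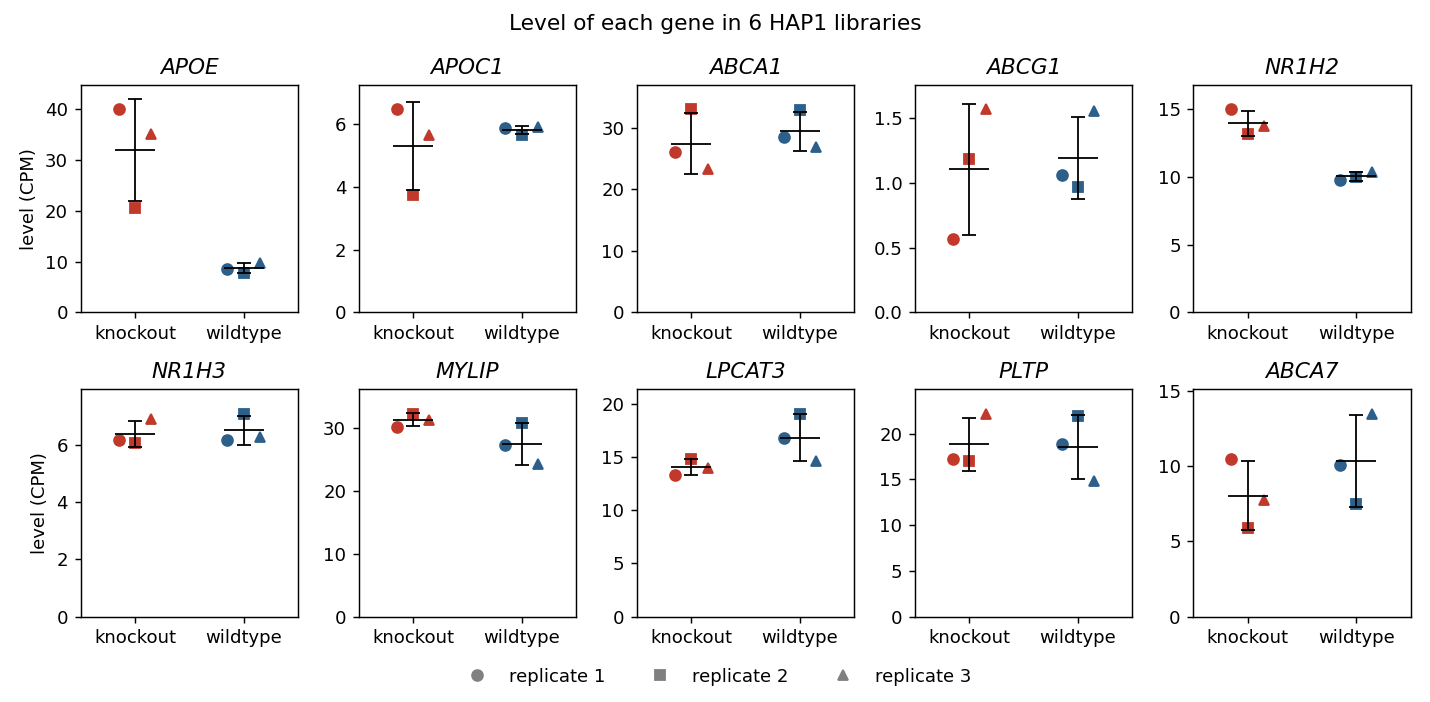
Level of each of the 10 genes in CPM (linear axes from 0), with knockout libraries on the left and wildtype libraries on the right of each panel. Symbols are libraries, and bars show the mean and SD of 3. The knockout libraries lie above the wildtype libraries in APOE and NR1H2, and the groups overlap in the other 8 panels. Groups did not overlap in 20.8% of all tested genes, in either direction.

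None of the other 9 genes passed the test. At an edgeR quasi-likelihood adjusted p under 0.05 (Benjamini-Hochberg over all tested genes), 0 of the 9 were called, against 4.46% of all tested genes in either direction. By the DESeq2 Wald test and by limma voom the count was also 0. An unadjusted edgeR p under 0.05 was found for 1 of the 9, NR1H2, and for 2799 of all 16954 tested genes. The count of calls was 1 without wildtype replicate 2, where again the gene was NR1H2. The log2 fold changes were positive in 3 and negative in 6, with a median of -0.07, beside a median of -0.02 over all tested genes. Each of the 9 had a 95% interval whose upper bound was at most 0.81 on the log2 scale, or 1.75-fold, the highest being that of ABCG1. The lowest bound was -0.95, also for ABCG1, or 0.518-fold. Changes smaller than these bounds may be present.

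**Figure D2:**
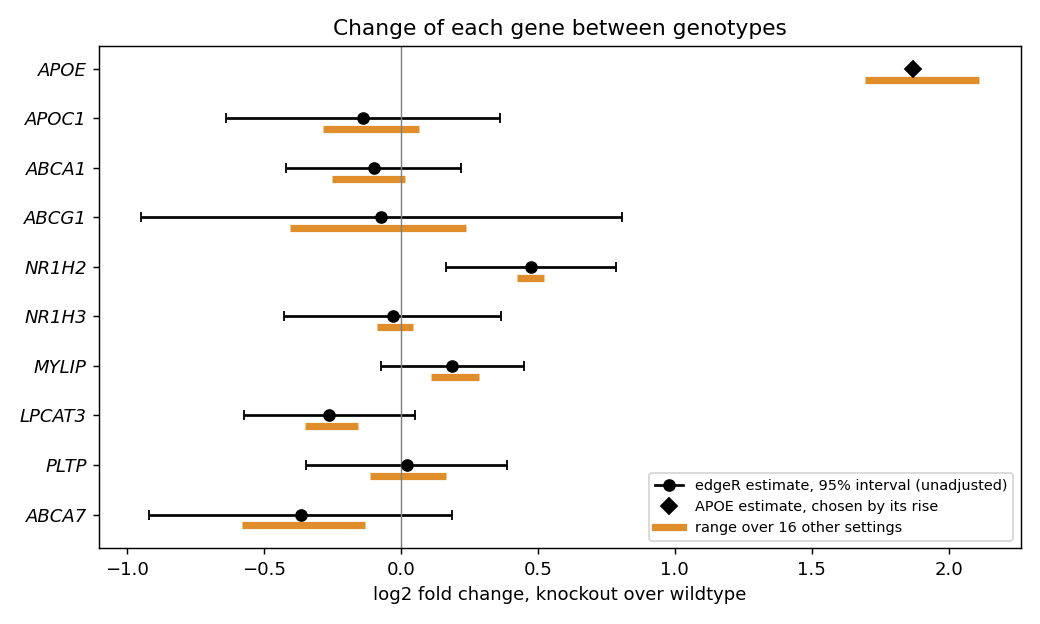
Log2 fold change of each gene, knockout over wildtype. Circles with bars are edgeR estimates with unadjusted 95% intervals for 9 genes, the diamond is the APOE estimate of 1.87, and orange bars span 16 other settings. Apart from NR1H2, the intervals of the 9 genes cross 0.

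APOC1, which encodes a small apolipoprotein and is the next gene after APOE, was not called. It had 6.46, 3.75 and 5.65 CPM in the knockout and 5.86, 5.65 and 5.89 CPM in wildtype, and the groups overlapped. The log2 fold change was -0.14 (standard error 0.23, adjusted p = 0.806 by edgeR), with a 95% interval of -0.64 to 0.36. Knockout replicate 2 was low for APOC1, as it was for APOE, at 0.619 and 0.549 times the mean of the other 2 knockout libraries. Counts of APOE per count of APOC1 were therefore steady within a genotype, at 6.18, 5.50 and 6.22 in the knockout and 1.46, 1.39 and 1.66 in wildtype. APOC1 has a close pseudogene copy, APOC1P1, just beyond it, so its counts are uncertain to the extent that reads were shared. APOC1P1 was at 0.736 ± 0.208 CPM in the knockout and 0.752 ± 0.205 CPM in wildtype (SD, n = 3 each).

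The other neighbours of APOE on chromosome 19 gave no call. Of 16 listed, 14 were tested, 0 were called and 0 had an unadjusted edgeR p under 0.05, and DESeq2 and limma voom also called 0. The groups overlapped in each of the 14, while 20.8% of all tested genes had groups that did not overlap. The median log2 fold change of the 14 was 0.04. TOMM40, the mitochondrial import channel gene that ends just before APOE, averaged 180.5 ± 10.01 CPM in the knockout and 175.5 ± 4.44 CPM in wildtype (SD, n = 3 each). NECTIN2, an adhesion receptor, had the smallest p of the list, with 69.1, 44.6 and 54.1 CPM in the knockout, 49.8, 40.2 and 46.1 CPM in wildtype, and a log2 fold change of 0.30 (standard error 0.15, adjusted p = 0.358 by edgeR). APOC4 and APOC2, the apolipoprotein genes beyond APOC1, were under 1 CPM in every library, were not tested and are counted with the LXR targets. On the chromosomes that hold the 10 genes, the median log2 fold change of well-expressed genes ran from -0.04 on chromosome 9 to 0.09 on chromosome 11, and it was 0.04 on chromosome 19.

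**Figure D3:**
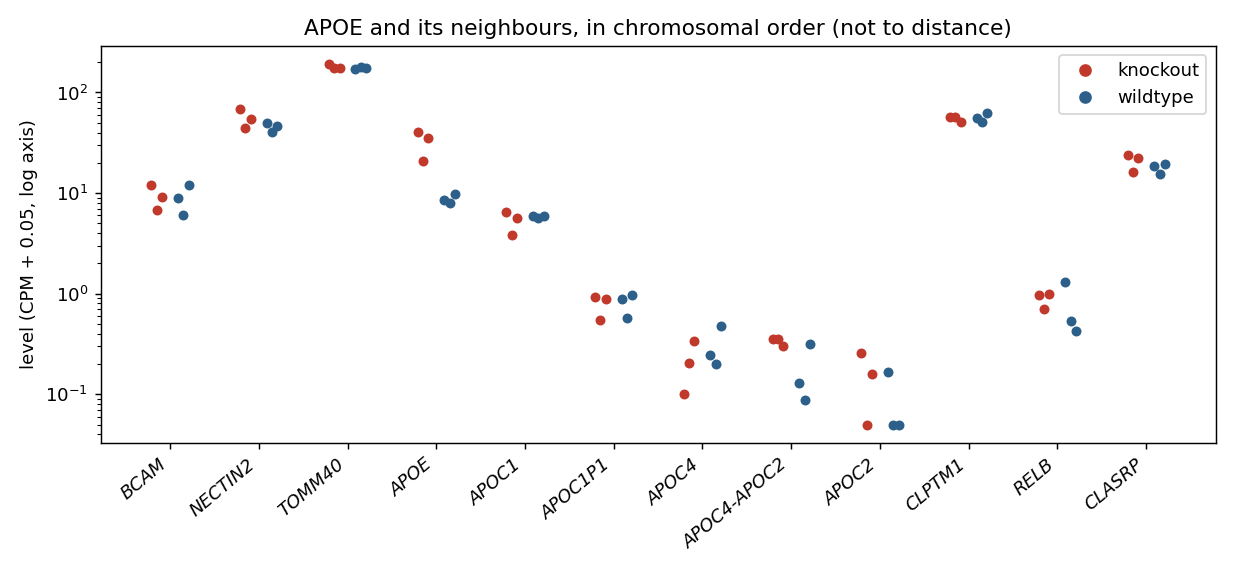
Level of APOE and 11 neighbours in CPM plus 0.05 (log axis), ordered as on the chromosome and not spaced by distance, with knockout points left of wildtype points. APOE is the gene here whose groups stand clearly apart, at 20.6 to 39.97 CPM in the knockout and 7.84 to 9.80 CPM in wildtype.

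Of the receptors, NR1H2 (LXR beta, found in most tissues) came nearest to the threshold. It had 14.98, 13.2 and 13.7 CPM in the knockout and 9.75, 9.95 and 10.4 CPM in wildtype. Its groups did not overlap, as in 20.8% of all tested genes in either direction. The lowest knockout library was 1.27 times the highest wildtype library. The log2 fold change was 0.48 (standard error 0.14, adjusted p = 0.0931 by edgeR), with a 95% interval of 0.17 to 0.79. It was called in 1 of 16 other settings, without wildtype replicate 2 (edgeR adjusted p = 0.0323), and its adjusted p ran up to 0.391. NR1H3, the form enriched in liver, fat and macrophages, had 6.16, 6.08 and 6.89 CPM in the knockout and 6.17, 7.09 and 6.27 CPM in wildtype. Its groups overlapped, and the log2 fold change was -0.03 (standard error 0.18, adjusted p = 0.949 by edgeR). The 2 receptor genes were thus in a ratio of 2.43, 2.16 and 1.99 counts of NR1H2 per count of NR1H3 in the knockout and 1.58, 1.40 and 1.66 in wildtype. That ratio is not corrected for transcript length.

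ABCA1 and ABCG1 export cholesterol to lipid-poor apolipoproteins and to HDL particles. ABCA1, the gene whose promoter holds the repeat printed above, had 26.0, 32.96 and 23.3 CPM in the knockout and 28.5, 32.8 and 26.8 CPM in wildtype. The groups overlapped, and the log2 fold change was -0.10 (standard error 0.15, adjusted p = 0.773 by edgeR). Its 95% interval was -0.42 to 0.22. ABCG1 was the scarcest member, with 11, 31 and 43 counts in the knockout and 27, 26 and 29 in wildtype. These are 0.564, 1.18 and 1.57 CPM in the knockout and 1.06, 0.966 and 1.55 CPM in wildtype, and the log2 fold change of -0.07 (standard error 0.40, adjusted p = 0.946 by edgeR) has the widest interval of the set. ABCA7, a relative of ABCA1 that handles phospholipid and is not a strong LXR target, had 10.5, 5.89 and 7.73 CPM in the knockout and 10.1, 7.46 and 13.5 CPM in wildtype. Its groups overlapped, with a log2 fold change of -0.37 (standard error 0.25, adjusted p = 0.516 by edgeR).

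The remaining LXR targets act on receptors and phospholipids. MYLIP, also called IDOL, is a ubiquitin ligase for lipoprotein receptors, and had 30.3, 32.4 and 31.3 CPM in the knockout and 27.3, 30.9 and 24.3 CPM in wildtype. Only knockout replicate 1 lay below the highest wildtype library, and the log2 fold change was 0.19 (standard error 0.12, adjusted p = 0.479 by edgeR). LPCAT3, which puts polyunsaturated acyl chains into lysophospholipids, had 13.3, 14.8 and 14.0 CPM in the knockout and 16.8, 19.1 and 14.6 CPM in wildtype. Its log2 fold change was negative, at -0.26 (standard error 0.14, adjusted p = 0.399 by edgeR), and the groups overlapped through wildtype replicate 3. PLTP, the plasma phospholipid transfer protein, had 17.2, 17.0 and 22.2 CPM in the knockout and 18.8, 21.9 and 14.8 CPM in wildtype. Its groups overlapped fully, with a log2 fold change of 0.02 (standard error 0.17, adjusted p = 0.962 by edgeR).

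The strand setting of the authors' counting is not given, and 3 of the 10 genes share exon sequence with a gene on the other strand in GENCODE release 29. These are LPCAT3 with EMG1 at 66.8 to 77.4 CPM in the knockout and 60.5 to 77.0 CPM in wildtype, PLTP with CTSA at 41.1 to 48.4 CPM in the knockout and 35.9 to 42.5 CPM in wildtype, and NR1H3 with ACP2 at 19.1 to 20.3 CPM in the knockout and 17.1 to 19.6 CPM in wildtype. Without strand, reads of such partners cannot be told apart. The exons of APOE and APOC1 overlap a gene model that the table does not list, AC011481.3, and no gene of the table.

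Per kilobase of each gene's longest GENCODE transcript, APOE had the highest mean of the set in the knockout, as it did in plain CPM, and not in wildtype. In the knockout it stood at 26.4 ± 8.34 CPM per kb, above MYLIP at 11.2 ± 0.372, PLTP at 8.34 ± 1.30, APOC1 at 7.67 ± 2.02, NR1H2 at 5.87 ± 0.392, LPCAT3 at 4.84 ± 0.259, ABCA1 at 2.61 ± 0.477, NR1H3 at 2.33 ± 0.163, ABCA7 at 1.18 ± 0.338 and ABCG1 at 0.318 ± 0.146 (SD, n = 3). In wildtype the order of levels was MYLIP at 9.82 ± 1.18 CPM per kb, APOC1 at 8.42 ± 0.194, PLTP at 8.21 ± 1.57, APOE at 7.23 ± 0.822, LPCAT3 at 5.80 ± 0.770, NR1H2 at 4.21 ± 0.138, ABCA1 at 2.80 ± 0.295, NR1H3 at 2.38 ± 0.186, ABCA7 at 1.52 ± 0.444 and ABCG1 at 0.344 ± 0.0907 (SD, n = 3). Neighbours in the order whose mean ± SD ranges overlap were PLTP and APOC1, APOC1 and NR1H2, and ABCA1 and NR1H3 in the knockout. In wildtype they were APOC1 and PLTP, PLTP and APOE, APOE and LPCAT3, and ABCA1 and NR1H3. The transcripts used in these cells were not measured, so the scale is approximate.

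Over the 6 libraries, the genes of at least 5 CPM whose log2 CPM followed APOE most closely, among 11422 compared, were B3GAT3 (Pearson r = 0.999), ANK3 (0.996), KIF3C (0.992), GPR161 (0.990) and PRR16 (0.989). B3GAT3 makes the linker of proteoglycan sugar chains, ANK3 is an ankyrin of the neuronal membrane skeleton, KIF3C is a kinesin motor and GPR161 is a receptor of the primary cilium. Their differences were far smaller than that of APOE. B3GAT3 averaged 33.5 ± 2.50 CPM in the knockout and 25.3 ± 0.468 CPM in wildtype (SD, n = 3 each). None of the 5 was called by edgeR. They were picked by their likeness to APOE, itself chosen by its rise. A difference between the genotypes thus follows from that choice, and their p-values are not given. Within the set, NR1H2 had r = 0.984, and 0.118% of tested genes had an r at least as high. The others ran from 0.526 for MYLIP to -0.825 for LPCAT3. These values describe 6 points in 2 genotypes and carry no test.

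The wider pathway was read from 10 lists of other lipid genes, together 128 tested genes, of which 5 rose and 7 fell in edgeR's test. Among the 7 are CYP39A1 and PPARGC1A, which passed the filter on low counts through the wildtype libraries. Their place in this count is therefore a description. For comparison, 1.51% of all tested genes were called higher and 2.95% lower, or 256 and 500 genes, and 446 and 552 once the length and GC trend of each library was removed. The count of 12 rested on single libraries. It was 41 without wildtype replicate 2, 8 without knockout replicate 1, 7 without knockout replicate 2, 6 without wildtype replicate 1, 6 without wildtype replicate 3 and 4 without knockout replicate 3.

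Among 17 other LXR targets, 12 were tested, 1 rose and 11 were not called, with a median log2 fold change of -0.01. SREBF1, the lipogenic factor that LXR induces in liver, had 55.0, 33.2 and 45.2 CPM in the knockout and 60.1, 43.3 and 66.3 CPM in wildtype (log2 fold change -0.35, standard error 0.20, adjusted p = 0.430 by edgeR). Its targets SCD and FASN had log2 fold changes of 0.01 (SE 0.13) and -0.78 (SE 0.42), at edgeR adjusted p = 0.968 and 0.422. Without wildtype replicate 2, FASN was called lower (log2 fold change -1.13, edgeR adjusted p = 0.00323). LPL had 3.13, 1.38 and 3.65 CPM in the knockout and 5.62, 6.02 and 4.98 CPM in wildtype (log2 fold change -1.03, standard error 0.32, adjusted p = 0.105 by edgeR). It was called lower by the DESeq2 Wald test (adjusted p = 0.0285) and with no filter on low counts (edgeR adjusted p = 0.0272). CETP, ABCG8, APOD, APOC2 and APOC4 did not pass the filter on low counts.

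Of 18 tested RXR partners, cofactors and regulators of LXR, 1 rose and 1 fell, with a median log2 fold change of -0.01. NRIP1, also known as RIP140, is a nuclear receptor cofactor, and it had 30.2, 34.7 and 25.9 CPM in the knockout and 18.4, 16.3 and 17.8 CPM in wildtype. The groups did not overlap, and the log2 fold change of 0.79 (standard error 0.14, adjusted p = 0.00571 by edgeR) was called in all 16 other settings. The coactivator PPARGC1A fell to 0.353 CPM in the knockout, against 1.05 CPM in wildtype (log2 fold change -1.58, standard error 0.38, adjusted p = 0.0392 by edgeR). Its counts were low, at 9, 8 and 8 in the knockout and 28, 26 and 20 in wildtype. PPARGC1A passed the filter on low counts through the wildtype libraries, so its p is given as a description. With a filter of 1 CPM in 3 libraries it was not tested. The RXR genes that pair with LXR gave no call. RXRA averaged 21.0 ± 0.576 CPM in the knockout and 19.6 ± 3.49 CPM in wildtype, and RXRB 22.3 ± 2.03 CPM in the knockout and 21.7 ± 2.04 CPM in wildtype (SD, n = 3 each).

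Of the 11 tested genes that make or clear oxysterols, the LXR ligands, 1 fell and 10 were not called, with a median log2 fold change of 0.02. CYP39A1, which hydroxylates the oxysterol made by CYP46A1, had 6 counts over the knockout libraries (1, 3 and 2) and 67 over the wildtype libraries (23, 26 and 18). That is 0.087 times as many at equal depth (exact 95% bounds 0.0308 and 0.2, for counting error alone). CYP39A1 passed the filter on low counts through the wildtype libraries alone, so its edgeR adjusted p = 0.00152 is given as a description. With a filter of 1 CPM in 3 libraries it was not tested. CYP46A1 itself averaged 11.8 ± 1.58 CPM in the knockout and 15.8 ± 4.17 CPM in wildtype (SD, n = 3 each), with edgeR adjusted p = 0.325, and it was called lower without wildtype replicate 2 (edgeR adjusted p = 0.0106). CYP27A1 and CH25H, which make other oxysterols, did not pass the filter.

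Of 11 tested receptors and receptor partners that bind APOE, 1 rose, 2 fell and 8 were not called, with a median log2 fold change of -0.20. VLDLR had 56.6, 57.0 and 49.8 CPM in the knockout and 44.2, 36.0 and 37.6 CPM in wildtype (log2 fold change 0.47, standard error 0.11, adjusted p = 0.0402 by edgeR). The large scavenging receptors LRP2 and LRP1B had log2 fold changes of -1.75 (SE 0.40) and -0.97 (SE 0.23), at edgeR adjusted p = 0.0305 and 0.0376 and at under 6 CPM in every library. Of 6 tested genes of MYLIP action and receptor breakdown, 1 fell, with a list median of 0.15.

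Of 14 tested genes of other apolipoproteins and lipoprotein assembly, 1 rose and 13 were not called, with a median log2 fold change of 0.03. The one was CLU, or clusterin, a secreted chaperone that travels on lipoproteins, with 75.1, 64.4 and 87.4 CPM in the knockout and 48.1, 50.6 and 40.9 CPM in wildtype (log2 fold change 0.70, standard error 0.13, adjusted p = 0.0102 by edgeR). Of 13 tested genes in the list of other ABC lipid transporters, 2 fell and 11 were not called. A negative log2 fold change was found for 11 of the 13 and for 8937 of all 16954 tested genes, and the list median was -0.47. The list does not hold every tested ABC gene. ABCB1, the multidrug exporter P-glycoprotein, fell to 2.67, 5.32 and 3.50 CPM in the knockout, against 18.8, 18.0 and 15.2 CPM in wildtype (log2 fold change -2.17, standard error 0.23, adjusted p = 0.000201 by edgeR), and stayed called in all 16 other settings. ABCA3, a phospholipid transporter of lamellar bodies, had a log2 fold change of -0.57 (standard error 0.13, adjusted p = 0.0240 by edgeR).

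Cholesterol handling inside the cell gave 1 call in 30 tested genes. Of 16 tested genes of intracellular transport, with a median log2 fold change of 0.06, OSBPL6, an oxysterol-binding protein relative, rose to 76.4 ± 5.70 CPM in the knockout, against 53.8 ± 4.41 CPM in wildtype (SD, n = 3 each; log2 fold change 0.51, standard error 0.11, adjusted p = 0.0228 by edgeR). GRAMD1B, of the same list, had 23.3, 26.6 and 23.3 CPM in the knockout and 16.9, 13.1 and 19.1 CPM in wildtype. It was not called (log2 fold change 0.58, standard error 0.15, adjusted p = 0.0574 by edgeR). Some other settings called it higher, among them the DESeq2 Wald test (adjusted p = 0.0154) and the replicate block (edgeR adjusted p = 0.0462). Of 14 tested targets and regulators of SREBP2, the factor that answers to low sterol, 0 were called by edgeR, 1 had an unadjusted p under 0.05 and 11 had a positive log2 fold change, with a median of 0.09. Over all 16954 tested genes, 2799 had an unadjusted p under 0.05 and 8017 had a positive log2 fold change. The smallest p of the SREBP2 list was that of SREBF2 itself, with 97.4, 81.4 and 91.3 CPM in the knockout and 130.6, 101.3 and 137.3 CPM in wildtype (log2 fold change -0.45, standard error 0.13, adjusted p = 0.0935 by edgeR). SREBF2 was called lower without wildtype replicate 2 (edgeR adjusted p = 0.00152) and with the length and GC trend removed (0.0306). Of 13 tested genes of phospholipid transfer and acyl remodelling 0 were called by edgeR, 4 had an unadjusted p under 0.05 and the median was -0.09. PITPNB, a phosphatidylinositol transfer protein, came nearest (log2 fold change -0.52, standard error 0.15, adjusted p = 0.0870 by edgeR), and was called lower without knockout replicate 2 (edgeR adjusted p = 0.0122) and with no filter on low counts (0.0283).

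**Figure D4:**
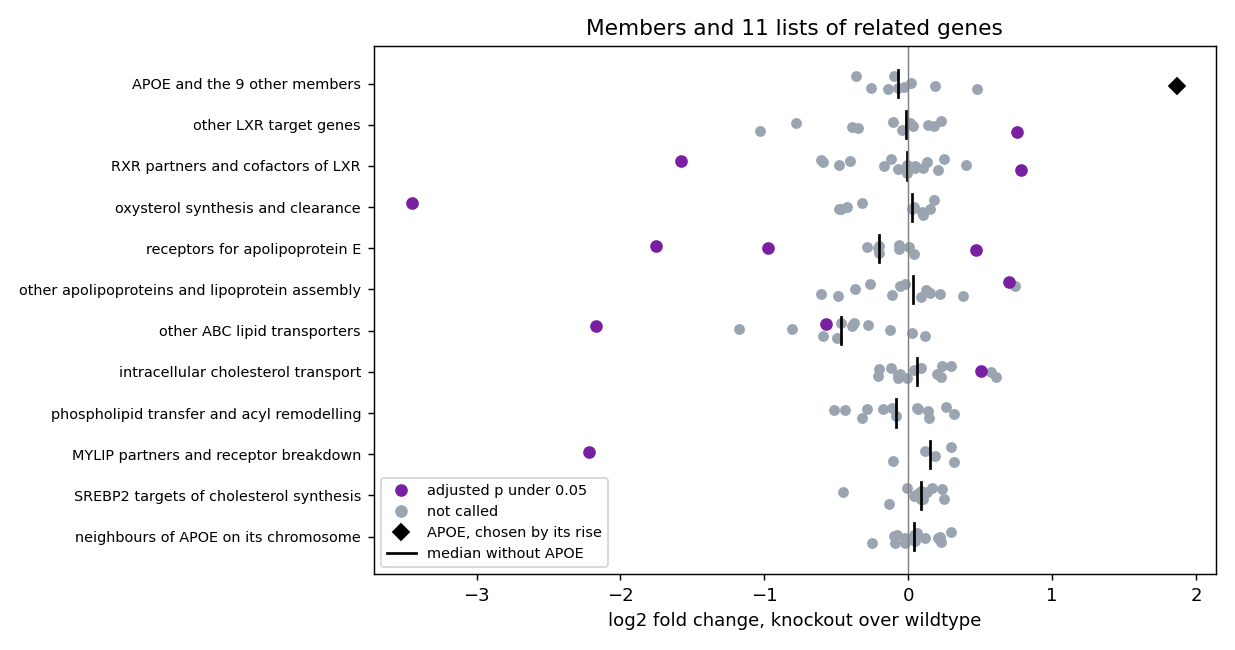
Log2 fold change, knockout over wildtype, of every tested gene in the set and in 11 related lists. Purple points passed an edgeR adjusted p under 0.05, grey points did not, the black diamond is APOE and vertical ticks are medians without APOE. Calls are scattered over the lists, with 5 higher and 7 lower among the 10 pathway lists. The 7 include CYP39A1 and PPARGC1A, which passed the filter on low counts through the wildtype libraries.

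Several of these calls were lost when a library was left out. The highest edgeR adjusted p came without knockout replicate 3 for CLU (0.0736), ABCA3 (0.157), LRP2 (0.177) and PPARGC1A (0.226). It came without knockout replicate 1 for VLDLR (0.140) and LRP1B (0.186), and without wildtype replicate 1 for OSBPL6 (0.116). CLU was lost without knockout replicate 3 alone. Without knockout replicate 1 the adjusted p was also 0.0893 for ABCA3 and 0.0893 for PPARGC1A. Without knockout replicate 2 it was 0.0522 for ABCA3, 0.0782 for OSBPL6, 0.0913 for LRP1B, 0.117 for VLDLR, 0.119 for LRP2 and 0.123 for PPARGC1A. Without knockout replicate 3 it was also 0.0845 for VLDLR, 0.103 for LRP1B and 0.115 for OSBPL6. Without wildtype replicate 1 it was also 0.0867 for LRP2, 0.0924 for ABCA3, 0.139 for LRP1B and 0.184 for PPARGC1A. Without wildtype replicate 3 it was 0.0569 for LRP2, 0.0654 for ABCA3, 0.0716 for LRP1B, 0.0735 for OSBPL6, 0.101 for PPARGC1A and 0.103 for VLDLR. With all libraries, other settings also ended calls. PPARGC1A was lost by the DESeq2 Wald test (adjusted p = 0.0845), VLDLR by limma voom (0.0506) and LRP1B with the length and GC trend removed (edgeR adjusted p = 0.0900). Upper-quartile scaling ended the calls of VLDLR (edgeR adjusted p = 0.0676) and LRP2 (0.0558). Library size alone ended those of VLDLR (0.119), LRP2 (0.0709), PPARGC1A (0.0557), ABCA3 (0.0544) and LRP1B (0.0503).

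Markers of cells known for high APOE gave no call, but few were tested. These were 5 of 10 macrophage, 3 of 8 hepatocyte and 5 of 7 astrocyte markers. Of all tested genes 4.46% were called, so the absence of calls among so few markers says little. Summed levels of 10 macrophage markers were 8.53 to 10.9 CPM in the knockout and 8.17 to 14.2 CPM in wildtype, with 5 of the 10, among them CD14, ITGAM and SPI1, under 1 CPM in every library and SPI1 at 0 counts throughout. Summed levels of 8 hepatocyte markers were 4.66 to 6.20 CPM in the knockout and 4.90 to 8.09 CPM in wildtype, with ALB, TTR, SERPINA1, FGB and AFP under 1 CPM. Summed levels of 7 astrocyte markers were 45.5 to 57.2 CPM in the knockout and 52.5 to 74.5 CPM in wildtype, with AQP4 and S100B under 1 CPM. The genes with the smallest p in these lists were CSF1R (edgeR adjusted p = 0.366), HNF4A (0.539) and SLC1A3 (0.0852), each with a negative log2 fold change. SLC1A3, a glutamate transporter, was called lower without wildtype replicate 2 (edgeR adjusted p = 0.0238). So were the macrophage marker CD163 (0.0225) and the astrocyte marker ALDH1L1 (0.0421), in a setting that called 3825 of all tested genes.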

How the data were processed

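The members and the gene lists were chosen with earlier results of these data known. The authors deposited raw whole-number read counts for each gene symbol, for RNA from a stranded total RNA kit read at 75 nt. The submitters' processing notes name bcl2fastq 2.20 and hg19. How reads were aligned and counted, with which annotation and strand setting, was not given in the sources used here. Coordinates of promoter windows are from GRCh38.p14 and were not carried over to hg19.

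All 209 listed genes were found by symbol. Counts were tested across all genes with edgeR 4.0.16 in R 4.3.3: trimmed mean of M values scaling, edgeR's expression filter, and a robust quasi-likelihood F test on genotype alone, with calls at an adjusted p (Benjamini-Hochberg) under 0.05. Each standard error is the size of the log2 fold change divided by the root of F. Lists are described by counts and medians only. The genes named are all members, up to 4 called genes without overlap per list or else the smallest p, and the 5 most like APOE; some of these are not reported here. SREBF1, SCD, FASN, RXRA, RXRB, CYP46A1, CYP27A1, CH25H and TOMM40 were added for their roles after their values were seen. LPL and GRAMD1B were added because other settings called them. Scaled library sizes put a count of 3 at 0.109 to 0.161 CPM, and count intervals cover counting error only.

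No library pair agreed within sampling noise (chi-square per degree of freedom 12.6 to 52.6). On simulated data of this comparison the test recovered 29.2% of 65 genes changed 1.5-fold, 77.1% of 70 changed 2-fold and 98.5% of 65 changed 4-fold, with 16 false calls among 16494. DESeq2 1.42.0 and limma 3.58.1 gave alternatives, beside other scalings and filters, a replicate block, a length and GC correction (known for 94.2% of tested genes) and each library left out.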

Additional observations from a re-analysis of the deposited data

How the results depend on the processing

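The log2 fold change of APOE stayed positive in all 16 other settings, at 1.70 to 2.11. None of the other 9 genes was called in 15 of the 16, and leaving out single libraries gave 0 to 1. Small log2 fold changes that did not pass changed sign: PLTP to -0.019 with library size only, -0.023 with the length and GC trend removed and -0.014 with the replicate block added to that, and ABCA1 to 0.011 and 0.016 in the last pair of settings. Leaving out 1 library gave -0.40 to 0.24 for ABCG1, -0.28 to 0.065 for APOC1, -0.087 to 0.043 for NR1H3, -0.25 to 0.011 for ABCA1 and -0.11 to 0.16 for PLTP.

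Of all tested genes 756 were called, 380 to 3825 when 1 library was left out, 375 at an adjusted p under 0.01, and 1327 with the replicate block and the length and GC trend removed. The 12 pathway calls became 4 to 41 with 1 library left out, 7 with library size only, 19 with the replicate block and the length and GC trend removed, and 4 at an adjusted p under 0.01. Libraries with the same number also share a code in the labels whose meaning is not stated, and the labels do not say that it marks a shared batch or culture. Their deviations from the group means correlated at 0.257, 0.408 and -0.23. Between libraries of different number the correlation ran from -0.557 (knockout replicate 1 with wildtype replicate 2) to 0.587 (knockout replicate 1 with wildtype replicate 3). With the replicate block alone the counts were 1082 of all genes, 14 of the pathway genes and 0 of the 9, with SREBF2 (edgeR adjusted p = 0.0218) and ABL1 (0.0338) called, and SREBF1 was called with the replicate block and the trend removed (0.0388). The neighbours of APOE gave 0 calls in every setting. The causes were not tested.

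Depth limits ABCG1 most, at 11 to 43 counts per library. On simulated data with all 6 libraries, 29.2% of changes of 1.5-fold were recovered.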

Other observations

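FASN, which encodes the fatty acid synthase, had 221.9, 154.0 and 174.4 CPM in the knockout and 349.7, 137.9 and 457.3 CPM in wildtype. Wildtype replicate 2 was far below the other wildtype libraries, and below all 3 knockout libraries. The libraries numbered 2 were also the lowest of their genotype for SREBF1, which had 33.2 CPM in knockout replicate 2 and 43.3 CPM in wildtype replicate 2. ABL1 had 13.1, 9.75 and 14.5 CPM in the knockout and 6.84, 6.76 and 10.4 CPM in wildtype (log2 fold change 0.64, standard error 0.22, adjusted p = 0.144 by edgeR), and was called higher without wildtype replicate 3 (edgeR adjusted p = 0.0328).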
